A study of Mus musculus with 6 samples.

Results

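The adhesion G protein-coupled receptors described here are 8 genes, Adgrf5, Adgrl4, Adgra2, Adgrl1, Adgrl2, Adgrg1, Adgrg3 and Adgre5, out of the 30 genes of this receptor family in the mouse and 47517 gene symbols in the tables. They were measured by RNA sequencing in nascent blood cells of embryonic day 10.5 C57BL/6 mice that carry an Hlf-tdTomato knock-in, a fluorescent reporter in the locus of the blood stem cell transcription factor gene Hlf. All cells were sorted as reporter-positive, c-Kit-positive and CD45-negative, and there were 3 libraries of caudal-half cells from the embryo itself and 3 of yolk sac cells. Each library was made from the lysate of 100 cells, and nothing in the labels says whether replicates came from separate embryos, so the spread between libraries may be technical. The 8 genes were chosen from the family with the levels and the tissue differences of these same libraries known. Their values are therefore given as a description, and where they stand in the fit across all genes supports nothing about the group. All 8 reached the level needed for that fit.

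Adhesion receptors combine a long extracellular part, which holds adhesion domains, with the membrane-spanning part of a G protein-coupled receptor. Many of them cut themselves in a domain just outside the membrane, and the stretch exposed when the outer part is pulled away can act as a tethered agonist. Several are known from vessels, among them Adgrf5, Adgrl4 and Adgra2, while Adgrg1, also called Gpr56, marks blood stem cells and has been tied to their emergence from endothelium in zebrafish. Its neighbour Adgrg3 has been described as able to stand in for it in the mouse.

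Levels are given as TPM, the authors' abundance per transcript length and library, so genes can be set side by side. Each library had 15644 to 16975 genes at 1 TPM or more. The 7 sort and blood progenitor genes examined (Hlf, Kit, Ptprc, Runx1, Spn, Cd34 and Itga2b) were at 1 TPM or more in all 6 libraries. Hlf and Kit were selected for by the sort. Ptprc, the gene of CD45, was at 2.31 to 4.72 TPM although the cells were sorted as CD45-negative. Yolk sac replicate 2 stood apart. Its 10 yolk sac endoderm markers summed to 13260 TPM, against 762 TPM in yolk sac replicate 1 and 13.5 to 31.1 TPM in the other 4 libraries, and its 7 erythroid markers to 1475 TPM, against 5.26 to 16.4 TPM elsewhere. Its 7 sort and blood genes summed to 244 TPM, against 496 to 716 TPM elsewhere. Results are therefore also given without this library.

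Adgrg1 supplied about as many transcripts as the other 29 family genes together, in both tissues. It made up 45.5% to 59.1% of the family's summed TPM in the 6 libraries. That family sum averaged 395 TPM ± 45.5 (SD, n = 3) over the caudal libraries and 279 TPM ± 98.4 (SD, n = 3) over those of the yolk sac. The 8 receptors made up 83.8% to 93.8% of it, and most of the remainder was Adgra3, which is not among the 8. Adgrf5 was the receptor whose share differed most visibly, at 3.42% to 5.78% of the family in the caudal libraries and 0.406% to 0.942% in the yolk sac. Of the 22 family genes outside the 8, 19 were too low to be tested and never exceeded 1.05 TPM.

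**Figure D1:**
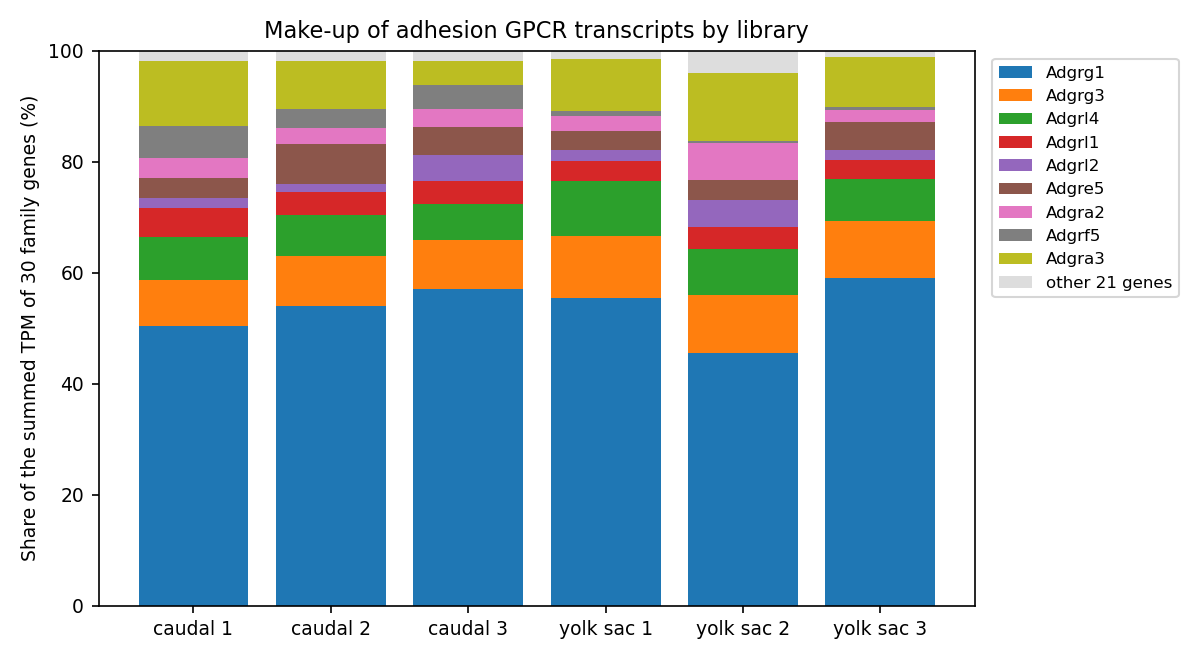
Stacked bars give, for each of the 6 libraries on the x axis, the percentage of the summed TPM of 30 adhesion receptor genes that each gene contributed. Adgrg1 fills 45.5% to 59.1% of every bar, and the Adgrf5 segment is wider in the 3 caudal bars (3.42% to 5.78%) than in the 3 yolk sac bars (0.406% to 0.942%).

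The order of the receptors by mean TPM was nearly the same in both tissues. Adgrg1 came first at 212 TPM in the caudal cells and 153 TPM in the yolk sac, and its lowest library lay above the highest Adgrg3 library in each tissue. Adgrg3, Adgra3, Adgrl4 and Adgre5 followed in that order in both, and the libraries of each pair of neighbours overlapped. Adgrf5 came sixth in the caudal cells, beside Adgrl1 (17.7 TPM each), and had no place among the yolk sac genes with a mean of 5 TPM or more. Averaged over the 6 libraries, Adgrg1 was at percentile 98.4 of the tested genes by level, Adgrg3 at 84.2 and Adgrl4 at 80.3. The remaining 5 receptors lay between percentile 51.4 (Adgrl2) and 68.4 (Adgre5).

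**Figure D2:**
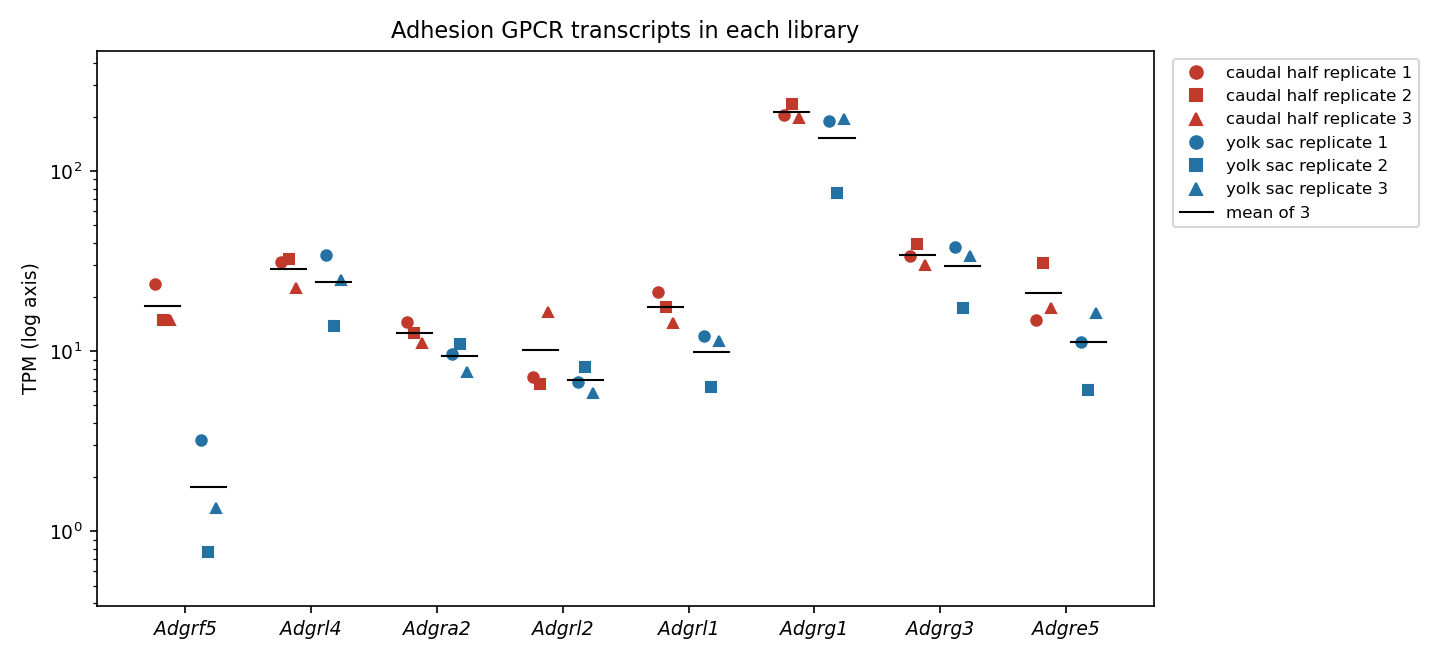
Points give the TPM (log axis) of each of the 8 receptors in each library, red for caudal-half cells and blue for yolk sac, with the replicate number as the symbol and a black line at the mean of 3. The Adgrf5 points form 2 separate groups, 14.8 to 23.5 TPM and 0.77 to 3.21 TPM, while for Adgrg1 and Adgrg3 the lowest point is yolk sac replicate 2.

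Adgrf5, also called Gpr116, is expressed in vascular endothelium and in the alveolar epithelium of the lung, where it limits surfactant secretion. It was at 23.5, 14.8 and 14.8 TPM in caudal replicates 1, 2 and 3, while the yolk sac libraries, in the same order, had 3.21, 0.77 and 1.34 TPM. The tissues did not overlap: the lowest caudal library was over 4 times the highest yolk sac library. The caudal mean was 17.7 TPM ± 4.98 (SD, n = 3) and the yolk sac mean 1.77 TPM ± 1.28 (SD, n = 3), a ratio of 9.99. On the log2(TPM + 1) scale, which understates changes of low genes, the difference was 2.82 (SE 0.36), or 7.06-fold. In bulk libraries such as these, fewer cells with the transcript and less transcript per cell cannot be told apart. Endothelial markers were also higher in the caudal cells: the 13 genes of that list summed to 553 to 740 TPM in the caudal libraries and 177 to 351 TPM in the yolk sac, and 12 of 13 did not overlap, as did 11.5% of all tested genes with the caudal cells higher. The 9 mesenchyme markers summed to 38.3 to 46.7 TPM in the caudal libraries and 5.04 to 6.53 TPM in the yolk sac, mostly through the contractile genes Acta2 (means of 32.8 and 1.60 TPM) and Tagln (5.01 and 1.08 TPM). Of the other 7, Postn averaged 1.88 and 1.17 TPM and Col1a2 averaged 1.04 and 0.514 TPM. Pdgfra averaged 0.868 and 0.183 TPM and Col1a1 averaged 0.157 and 0.0302 TPM. Each of these was higher on average in the caudal libraries but overlapped between the tissues. For Pdgfra and Col1a1 the caudal mean rested on replicate 1 alone (2.29 and 0.438 TPM). In caudal replicates 2 and 3 Pdgfra was at 0.214 and 0.103 TPM, and Col1a1 at 0.0179 and 0.0164 TPM. Pdgfrb averaged 1.09 and 1.02 TPM, and Dcn and Lum were at 0 to 0.0684 TPM. The part of either list in the Adgrf5 difference was not tested. Without yolk sac replicate 2 the Adgrf5 difference was 2.54 (SE 0.32).

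Cdh5, the VE-cadherin gene of endothelial junctions, was itself higher in the caudal cells, with means of 97.6 TPM ± 12.8 (SD, n = 3) and 16.6 TPM ± 5.43 (SD, n = 3). Of the 13 endothelial genes Cdh5 had the largest log2(TPM + 1) difference, 2.53, where the median of the list was 1.07. By the ratio of mean TPM, the lower genes Clec14a (8.94) and Mmrn2 (6.68) lay above Cdh5 (5.87). Set against Cdh5, the Adgrf5 gap was smaller. That result depends on the gene chosen: set against Cd34, the ratio of the Adgrf5 means was 7.45. Adgrf5 stood at 20.9, 16.3 and 16.6 TPM per 100 TPM of Cdh5 in the caudal libraries and at 15.4, 7.33 and 7.25 TPM in the yolk sac. Yolk sac replicate 1 was thus close to the caudal libraries without overlapping them, and the ratio of the means was 1.80. This comparison, and those with Adgrg1 and Cd34 given below, were chosen after the values had been seen. Adgrf5 was the only 1 of the 8 that was higher per Cdh5 in the caudal cells. The other 7 were higher per Cdh5 in every yolk sac library than in any caudal library, with ratios of means between 0.202 (Adgrg3) and 0.332 (Adgre5). The same held for Kit (0.273) and Cd34 (0.247), so it is not particular to the receptors. This direction follows from the choice of Cdh5. Its mean TPM had a ratio of 5.87 between the tissues, against 1.16 (Adgrg3) to 1.87 (Adgre5) for these 7. How many of all tested genes are higher per Cdh5 in the yolk sac was not computed.

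Adgrf5 lies on chromosome 17 (43360451 to 43459557, plus strand, GRCm38), spans 99.1 kb and has 21 exons in its longest annotated transcript. RefSeq promoter sequence (GRCm38.p6) was at hand for 6 of the 8 receptors, in 8 windows running from 250 bases before to 50 bases after a start. Shown 5′ to 3′ on the gene's strand are the 250 bases before the start of Adgrf5 (chr17:43360181-43360430), the receptor that differed most, and, for comparison, of Adgrg3 (chr8:95017442-95017691) and Adgrl4 (chr3:151437632-151437881), whose levels overlapped between the tissues. Capitals mark matches to CAGGAAG, a form of the binding sequence of ETS factors, on either strand.

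Adgrf5: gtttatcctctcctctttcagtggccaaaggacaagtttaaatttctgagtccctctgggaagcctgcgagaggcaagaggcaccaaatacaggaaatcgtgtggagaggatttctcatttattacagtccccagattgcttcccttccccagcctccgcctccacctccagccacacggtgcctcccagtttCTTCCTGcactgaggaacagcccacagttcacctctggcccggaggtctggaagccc
Adgrg3: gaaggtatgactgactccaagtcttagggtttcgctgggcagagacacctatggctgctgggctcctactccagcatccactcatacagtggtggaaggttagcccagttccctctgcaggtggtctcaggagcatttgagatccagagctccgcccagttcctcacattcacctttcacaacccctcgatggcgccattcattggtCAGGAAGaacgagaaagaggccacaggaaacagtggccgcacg
Adgrl4: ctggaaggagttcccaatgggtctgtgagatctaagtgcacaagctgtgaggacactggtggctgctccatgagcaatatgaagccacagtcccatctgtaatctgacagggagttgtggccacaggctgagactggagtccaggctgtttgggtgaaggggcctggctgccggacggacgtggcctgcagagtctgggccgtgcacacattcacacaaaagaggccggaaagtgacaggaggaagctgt

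Both strands of all 32851 windows were searched, and 13.3% held CAGGAAG. The Adgrf5 match is on the minus strand, at bases -57 to -51 from the start. Adgrg3 has matches on the plus strand at -43 to -37 and, beyond the part shown, at 8 to 14. An Adgrl2 window also holds one, while the Adgrl4, Adgrl1 and Adgrg1 windows and a second Adgrf5 window do not. The Adgrl2 window, the Adgrg1 windows and the second Adgrf5 window are at inner starts. Those of Adgrl2 and Adgrg1 overlap exons of the same gene. Of 3 other motifs searched, TGTGGTTN (RUNX, in 5.24% of all windows) matched once, in Adgrl2, while the motif of GATA factors, AGATAAG (3.04%), and that of SOX factors, ACAATGG (3.66%), matched none of the 8 windows. A match describes letters only, and the share of windows that hold each motif is the background to read it against.

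Adgrl4 and Adgra2 are the other receptors of the 8 best known from vessels. Adgrl4, also called Eltd1, is an endothelial gene linked to vessel sprouting. It was at 31.4, 32.4 and 22.4 TPM in the caudal libraries and at 34.1, 13.7 and 24.9 TPM in the yolk sac. The tissues overlapped, with yolk sac replicate 1 the highest of all and yolk sac replicate 2 the lowest. Means were 28.7 TPM ± 5.52 (SD, n = 3) and 24.2 TPM ± 10.2 (SD, n = 3), and the log2 difference was 0.31 (SE 0.32), which became -0.04 (SE 0.23) without yolk sac replicate 2. Adgra2, also called Gpr124, acts with the membrane protein Reck as a co-receptor for Wnt7 in brain vessels. It was at 14.5, 12.6 and 11.1 TPM in the caudal libraries and at 9.62, 10.9 and 7.68 TPM in the yolk sac. The tissues did not overlap, but caudal replicate 3 and yolk sac replicate 2 were within 0.2 TPM of each other. The log2 difference of Adgra2 was 0.40 (SE 0.22), and 0.51 (SE 0.21) without yolk sac replicate 2.

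Adgrl1 and Adgrl2 are latrophilins, receptors that bind teneurins and FLRT proteins on other cells and are best known from synapses. Adgrl1 was at 21.2, 17.6 and 14.3 TPM in the caudal libraries and at 12.1, 6.37 and 11.4 TPM in the yolk sac. All caudal libraries lay above all yolk sac libraries, with means of 17.7 TPM ± 3.47 (SD, n = 3) and 9.95 TPM ± 3.12 (SD, n = 3). The log2 difference was 0.80 (SE 0.28), and 0.54 (SE 0.21) without yolk sac replicate 2. Adgrl2 was at 7.21, 6.54 and 16.5 TPM in the caudal libraries and at 6.79, 8.15 and 5.88 TPM in the yolk sac. Caudal replicate 3 alone was high, and the log2 difference of 0.38 (SE 0.34) was -0.0026 (SE 0.25) without it. Leaving out yolk sac replicate 2 instead gave 0.49 (SE 0.37) for Adgrl2. Exons of Adgrl1 overlap those of Gm10644, Gm44330 and Gm44450, and exons of Adgrl2 those of Gm43573, so reads there cannot be assigned with certainty.

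Adgrg1 and Adgrg3 belong to the receptor group that is prominent in blood cells. Adgrg1 was at 204, 234 and 197 TPM in the caudal libraries and at 189, 75.3 and 195 TPM in the yolk sac. Yolk sac replicates 1 and 3 came within 8 TPM of the lowest caudal library, and replicate 2 was far below. Means were 212 TPM ± 19.8 (SD, n = 3) and 153 TPM ± 67.6 (SD, n = 3). The log2 difference of 0.58 (SE 0.34) was 0.14 (SE 0.15) without yolk sac replicate 2. Adgrg3, also called Gpr97 and known from neutrophils, was at 33.6, 39.2 and 30.2 TPM in the caudal libraries and at 37.8, 17.3 and 33.9 TPM in the yolk sac. Its tissues overlapped, and the log2 difference of 0.27 (SE 0.29) became -0.07 (SE 0.18) without yolk sac replicate 2.

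Adgrg1 (chromosome 8, 94974751 to 95014217) and Adgrg3 (95017692 to 95045250) are neighbours on the same strand, 3.48 kb apart. Adgrg5, the third gene of this cluster, lies 31.5 kb before Adgrg1, and was at 0.0186 to 0.463 TPM over the 6 libraries. Neither Adgrg1 nor Adgrg3 shares exon sequence with another annotated gene. In all, 5 of the 8 receptors lie on chromosome 8: Adgrl1 (83900105 to 83941954) and Adgre5 (83723251 to 83741326) are 159 kb apart, and Adgra2 is at 27085583 to 27123436. Adgrl2 (148815583 to 148990555) and Adgrl4 (151437887 to 151545086) are both on chromosome 3.

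Adgre5, which encodes the leukocyte surface protein CD97, binds CD55 and integrins. It was at 14.9, 30.8 and 17.3 TPM in the caudal libraries and at 11.3, 6.12 and 16.3 TPM in the yolk sac. Caudal replicate 2 was the highest, and yolk sac replicate 3 lay above caudal replicate 1, so the tissues overlapped. Means were 21.01 TPM ± 8.59 (SD, n = 3) and 11.2 TPM ± 5.08 (SD, n = 3), with a log2 difference of 0.87 (SE 0.38), or 0.53 (SE 0.32) without yolk sac replicate 2. Exons of Adgre5 overlap those of Ddx39 and Mir1668, and exons of Adgra2 those of Brf2.

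All 8 receptors had a positive difference, as did 10198 of all 16436 tested genes. The median of the receptors was 0.49, while the median over all tested genes was 0.09. It was 0.58 for the 7 sort and blood genes and 1.07 for the 13 endothelial genes, so a positive median is not particular to the receptors. Without yolk sac replicate 2, 6 of 8 receptors were positive, as were 8612 of all tested genes. Their medians were then 0.50 for the receptors and 0.02 over all genes. Adgrf5, Adgrl1, Adgrg1 and Adgra2 (4 of 8) had all caudal libraries above all yolk sac libraries, which was so for 11.5% of all tested genes, with 4.14% the other way round. By limma, with p-values adjusted over all genes, Adgrf5 passed at 0.05 (adjusted p = 0.0238) and the other 7 did not (adjusted p from 0.406 to 0.808). Over all genes 0.383% passed. Of the 13 endothelial genes 3 passed, all higher in the caudal cells: Cdh5, Clec14a and Mmrn2 (limma adjusted p from 0.0114 to 0.0393). Adgrf5 did not pass without any 1 of the 3 caudal libraries (adjusted p = 0.135, 0.0688 and 0.109 without replicates 1, 2 and 3) or without yolk sac replicate 3 (adjusted p = 0.0681), nor when genes of all levels were tested (adjusted p = 0.19). Adgrf5 did not pass either when the replicate number was added to limma as a block (adjusted p = 0.0619). It also did not pass without yolk sac replicates 1 and 2 together (adjusted p = 0.0507), a setting added after the data were seen.

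**Figure D3:**
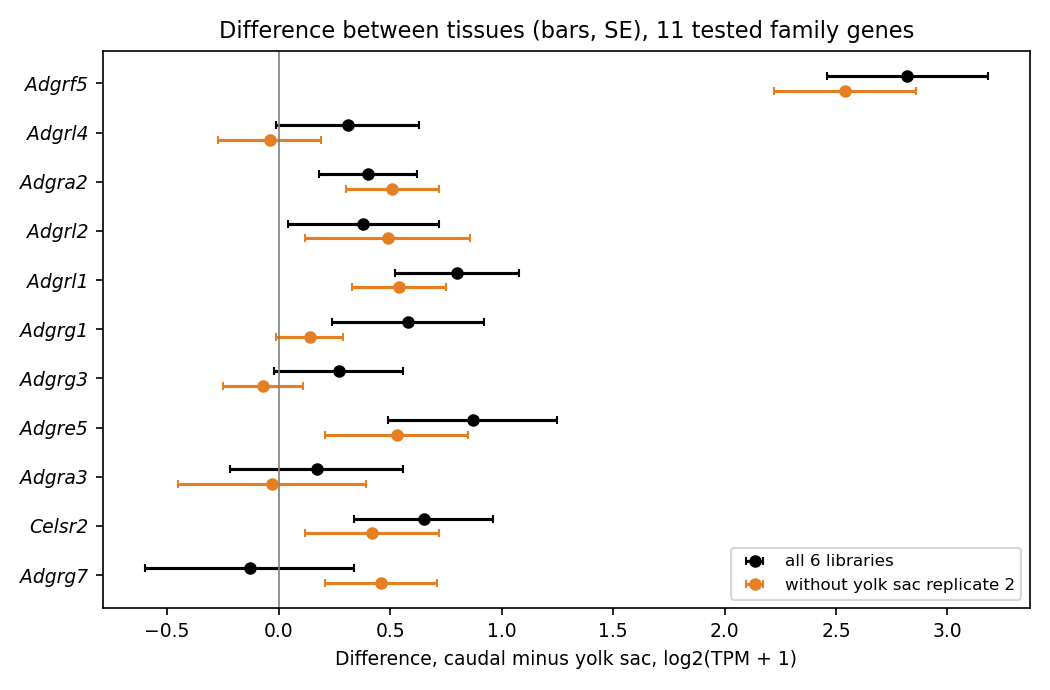
Points give the log2(TPM + 1) difference between tissues, positive where the caudal cells were higher, with its SE as bars, for the 8 receptors and the 3 other family genes that were tested, from all 6 libraries (black) and without yolk sac replicate 2 (orange). Adgrf5 lies at 2.82 and 2.54, and the other 7 receptors lie between 0.27 and 0.87 in black and between -0.07 and 0.54 in orange.

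The receptors were not all low in yolk sac replicate 2. Its level divided by the mean of yolk sac replicates 1 and 3 was 0.338 for Adgrf5, 0.392 for Adgrg1, 0.444 for Adgre5, 0.466 for Adgrl4, 0.484 for Adgrg3 and 0.543 for Adgrl1. These 6 values lie near those of the 7 sort and blood genes, which ranged from 0.374 to 0.680, and all 13 endothelial genes were also below 1 (Cdh5 at 0.533). For Adgra2 and Adgrl2 the same quotient was 1.26 and 1.29, and its median over all tested genes was 0.798. That library held the most endoderm and erythroid transcripts, whose part in these levels was not tested.

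Ratios within a library do not depend on how it was scaled. Per 100 TPM of Adgrg1, Adgrf5 stood at 11.5, 6.34 and 7.54 TPM in the caudal libraries and at 1.70, 1.02 and 0.688 TPM in the yolk sac, with replicate 2 between the other yolk sac libraries. The means, 8.45 ± 2.69 (SD, n = 3) and 1.14 ± 0.514 (SD, n = 3), had a ratio of 7.45. Adgrg3 per 100 TPM of Adgrg1 was 16.4, 16.7 and 15.3 in the caudal libraries and 20.0, 23.0 and 17.4 in the yolk sac, so the yolk sac cells had more Adgrg3 for their Adgrg1, without overlap and with a ratio of means of 0.803. Adgrl1, Adgrl2, Adgrl4, Adgre5 and Adgra2 overlapped between the tissues on this measure. Against Cd34, a surface protein gene of blood progenitors and endothelium, the Adgrg1 means were close: Adgrg1 stood at 75.6 ± 4.08 (SD, n = 3) per 100 TPM in caudal libraries and at 75.8 ± 12.3 (SD, n = 3) in those of the yolk sac. Adgrf5 per 100 TPM of Cd34 was again higher in the caudal cells, at 6.31 ± 1.65 (SD, n = 3) against 0.848 ± 0.383 (SD, n = 3). On this measure Adgrl1 did not overlap, with the caudal cells higher (ratio of means 1.23). Adgrg3 (0.812) and Adgrl4 (0.837) did not overlap either, with the yolk sac higher. Adgrl2, Adgre5 and Adgra2 overlapped. The Adgrl1 separation was narrow, with caudal replicate 3 at 5.55 and yolk sac replicate 2 at 5.37. For Adgrl4, yolk sac replicate 3 lay only just above caudal replicate 2. How many of all tested genes do not overlap per Cd34 or per Adgrg1 was not computed. These separations are therefore given as a description.

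**Figure D4:**
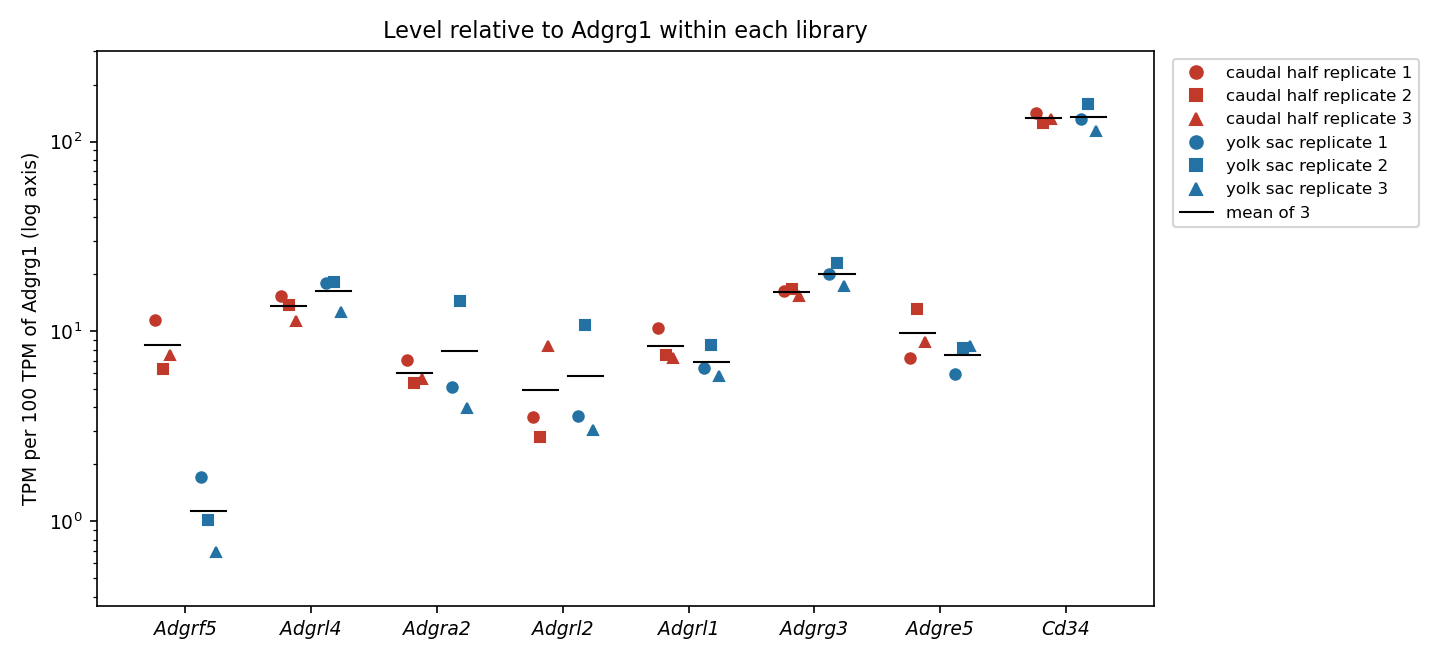
Points give the TPM of 7 receptors and of Cd34 per 100 TPM of Adgrg1 in the same library (log axis), red for caudal-half cells and blue for yolk sac, with the mean of 3 as a black line. Adgrf5 separates the tissues (6.34 to 11.5 against 0.688 to 1.70), and Adgra2 and Adgrl2 are highest in yolk sac replicate 2 (14.5 and 10.8).

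The genes whose profile over the 6 libraries lay nearest to each receptor were taken from 7847 tested genes with a mean of 5 TPM or more, by the distance between log2(TPM + 1) profiles centred on their means. For Adgrf5 they were Sox7, Fbn2 and Tead2, at distances of 0.402, 0.604 and 0.648. Sox7 encodes an endothelial transcription factor, Fbn2 a fibrillin of elastic microfibrils and Tead2 a partner of the Hippo pathway coactivator YAP. Sox7 was at 15.9, 8.24 and 9.47 TPM in the caudal libraries and at 1.35, 0.384 and 0.415 TPM in the yolk sac, high and low in the same libraries as Adgrf5. Nearest to Adgrg1 were Ghrl, Sestd1 and Meis1 (distances of 0.144 to 0.199), of which Meis1, a cofactor of Hox proteins in blood stem cells, was at 30.4 to 37.1 TPM in 5 libraries and at 12.8 TPM in yolk sac replicate 2. Adgrg3 lay nearest to Coro1a, an actin-binding protein gene of leukocytes, followed by Cyth4 and Fam132a. For Adgrl4 the third place went to Adrbk1, the gene of the receptor kinase GRK2, with Pearson r = 0.999 over the 6 libraries, which share the low values of replicate 2. The 3 nearest were Thsd1, Rhobtb3 and Snora64 for Adgrl1, Rbbp9, Mbnl2 and Inppl1 for Adgra2, Mirlet7f-1, Mir3109 and Fam8a1 for Adgrl2, and n-R5s196, P2ry14 and Svil for Adgre5. Orai2 and Slc39a10 preceded Adrbk1 for Adgrl4. Fbn2, Tead2, Ghrl, Meis1, Coro1a, Snora64, Mirlet7f-1, Mbnl2 and Inppl1 share exon sequence with other annotated genes. Snora64, Mirlet7f-1, Mir3109 and n-R5s196 are loci of small RNAs, and whether their values come from those RNAs was not tested. These profiles are given as a description.

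Of the 22 family genes outside the 8, only Adgra3, Celsr2 and Adgrg7 were high enough to be tested, and none passed (limma adjusted p from 0.563 to 0.951, and 0 with an unadjusted p under 0.05). Adgra3, the gene of Gpr125, was at 47.3, 37.8 and 15.4 TPM in the caudal libraries and at 31.6, 20.3 and 30.2 TPM in the yolk sac. Caudal replicate 3 was the lowest of all 6, so the spread within the caudal cells exceeded the gap between tissues (log2 difference 0.17, SE 0.39). Celsr2, a seven-pass cadherin of planar cell polarity, was at 2.78 TPM ± 1.15 (SD, n = 3) and 1.40 TPM ± 0.654 (SD, n = 3). Adgrg7 was at 4.17 TPM in yolk sac replicate 2, the library richest in endoderm markers, and at 0.285 to 1.31 TPM elsewhere. Adgre1, the gene of the macrophage antigen F4/80, was at 0 to 0.106 TPM. The macrophage markers examined differed in level. Csf1r was at 4.965 to 8.174 TPM and Cd68 at 9.968 to 18.09 TPM, while C1qa was listed at 0 in all 6 libraries. Adgra1, Adgrd1 and Adgrg4 were also listed at 0 throughout.

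Among 29 genes of ligands, co-receptors and membrane partners, 16 were tested and 0 passed limma's test with all libraries, while 5 had an unadjusted p under 0.05. Of the 16, 12 had positive differences, with a median of 0.25. Over all 16436 tested genes 0.383% passed, 1583 had an unadjusted p under 0.05, 10198 had positive differences and the median was 0.09. Tgm2, a transglutaminase that binds the outer part of the Adgrg1 protein, was at 40.4, 39.4 and 23.1 TPM in the caudal libraries and at 8.79, 26.8 and 6.25 TPM in the yolk sac. Yolk sac replicate 2 lay among the caudal libraries, and the log2 difference was 1.45 (SE 0.48, limma adjusted p = 0.367). Without that library it was 2.02 (SE 0.29) and passed (adjusted p = 0.0439), which made Tgm2 the 1 partner gene to do so in any setting tried. Exons of Tgm2 overlap those of Rprd1b and Gm20412. Col3a1, whose collagen is another Adgrg1 ligand, was at 1.25 TPM in caudal replicate 1 and at 0 to 0.0253 TPM in the other 5 libraries, too low to be tested.

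Partners of Adgre5 and Adgra2 did not pass either. Cd55, the complement regulator that CD97 binds, had the most negative difference of the tested partners (log2 difference -1.06, SE 0.28, limma adjusted p = 0.251). It was at 9.43, 13.9 and 8.49 TPM in the yolk sac and at 5.82, 3.11 and 4.86 TPM in the caudal libraries, without overlap. Itga5, an integrin subunit bound by CD97, was at 38.2, 39.4 and 33.0 TPM in the caudal libraries and 23.3, 20.6 and 21.8 TPM in the yolk sac, also without overlap (0.72, SE 0.17, limma adjusted p = 0.172). Reck was at 4.94 TPM ± 0.547 (SD, n = 3) and 2.97 TPM ± 0.192 (SD, n = 3), while Wnt7a and Wnt7b, the ligands read through Adgra2 and Reck, were at 0 to 0.105 TPM. Itgb3, the beta subunit of the fibrinogen and vitronectin receptors, was at 102 TPM ± 7.26 (SD, n = 3) and 62.8 TPM ± 25.9 (SD, n = 3), a log2 difference of 0.79 that was 0.39 without yolk sac replicate 2. For the latrophilins, Flrt2 was at 4.13 TPM ± 2.45 (SD, n = 3) and 1.77 TPM ± 1.08 (SD, n = 3), and Flrt3 at 13.5 TPM and 12.5 TPM. Of the teneurin genes only Tenm4 reached 1 TPM, in caudal replicate 1 alone (1.21 TPM).

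Signal transducers downstream of the receptors were present in both tissues. Of 38 genes for G proteins, their effectors, arrestins, receptor kinases, RGS proteins and SRF coactivators, 36 were tested and 0 passed limma's test, while 2 had an unadjusted p under 0.05. Positive differences were found for 26 of the 36, with a median of 0.23. These counts are to be read against the same counts over all genes given for the partners (0.383% passing, 1583 and 10198 of 16436). Gna12 and Gna13, the genes of G proteins that Adgrg1 couples to, overlapped between the tissues. Gna12 averaged 33.8 TPM ± 5.62 (SD, n = 3) in caudal and 32.4 TPM ± 3.11 (SD, n = 3) in yolk sac libraries, and Gna13 averaged 30.3 TPM ± 1.96 (SD, n = 3) and 35.0 TPM ± 7.0 (SD, n = 3). Exons of Cd55, Gnas, Arrb2 and Mkl2 overlap those of other annotated genes. Rgs1 and Rgs18, genes of proteins that shorten G protein signals, pointed in opposite directions. Rgs1 was at 3.78, 3.01 and 4.83 TPM in the caudal libraries and 0.933, 1.32 and 1.80 TPM in the yolk sac, without overlap (log2 difference 1.05, SE 0.25, limma adjusted p = 0.19). Rgs18, best known from platelets, was at 20.8, 14.8 and 17.7 TPM against 40.0, 17.5 and 35.7 TPM, where only yolk sac replicate 2 overlapped the caudal libraries (-0.70, SE 0.31, limma adjusted p = 0.53, and -1.06 without that library, adjusted p = 0.0997). Grk5 (2.70 against 1.53 TPM), Gnas (480 against 372 TPM), Mkl2 (4.77 against 3.12 TPM) and Arrb2 (15.4 against 21.3 TPM) each had no overlap and did not pass (limma adjusted p from 0.51 to 0.561). They were picked by smallest p. Of the 36 transducers, 5 had no overlap with the caudal cells higher and 1 with the yolk sac higher. Over all tested genes these shares were 11.5% and 4.14%.

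**Figure D5:**
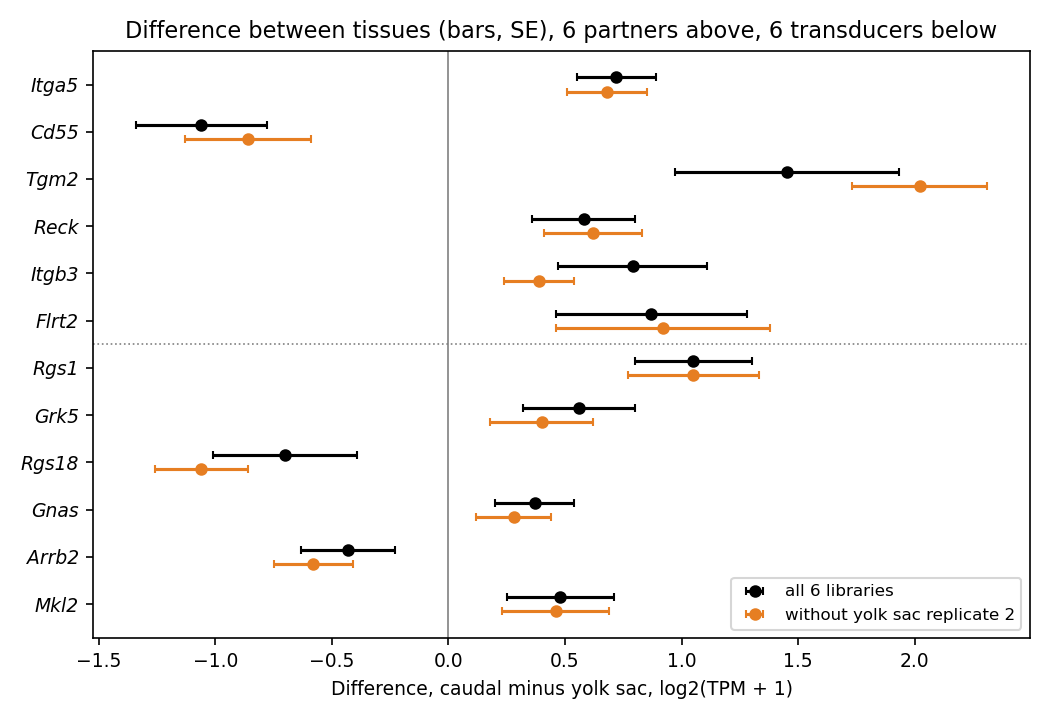
Points give the log2(TPM + 1) difference between tissues, positive where the caudal cells were higher, with its SE as bars, for the 6 partner genes and the 6 transducer genes with the smallest p, from all 6 libraries (black) and without yolk sac replicate 2 (orange). Tgm2 moves from 1.45 to 2.02, and Cd55, Rgs18 and Arrb2 lie left of 0 in both.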

How the data were processed

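Each deposited table lists TPM per gene or assembled locus, which is handled here as a signal scaled by the authors in each library, per the file headers. HISAT2, StringTie and the mm10 build were used, per the submitters' processing notes. Versions, annotation and strand use: not given in the sources used here. Unnamed assembled loci summed to 1000000 TPM in each library and annotated genes to 555230 to 684549 TPM. Only annotated genes were used, with TPM summed per symbol; 27 symbols turned into dates were restored by gene ID. TPM keeps no read depth, so no counting interval or detection limit can be given.

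Tissues were compared with limma 3.58.1 (R 4.3.3) on log2(TPM + 1), with a trend of variance on level, two-sided, over the 16436 genes that reached 1 TPM in 3 or more of the 6 libraries. Benjamini-Hochberg adjustment ran over all of them, and 0.05 was the threshold. The fit was checked on simulated data. The members and all gene lists were chosen with earlier results of these data known. Named genes were the 8 receptors, tested family genes, and up to 6 partners and 6 transducers by smallest p, besides those passing; Flrt3, Gna12, Gna13, Col3a1, Wnt7a, Wnt7b, Tenm4 and untested family genes were added for their role after their values were seen. Positions and exon overlaps are from GENCODE M21 (GRCm38), matched by gene ID. Markers of endothelium, endoderm, mesenchyme, erythroid cells, macrophages and blood progenitors were summed per library: the 8 macrophage markers came to 17.3 to 26.2 TPM in all 6. Alternatives changed the pseudocount (0.1 or 5), the filter (none, or a mean of at least 10 TPM) or the scaling (quantile normalization, or annotated genes rescaled to 1000000 TPM), added the replicate number as a block, or left out each library; leaving out yolk sac replicates 1 and 2 together was added after the data were seen. Mkl2 and Adrbk1 are older symbols, used as in the tables, of Mrtfb and Grk2. Protein sequences were not analysed here.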

Additional observations from a re-analysis of the deposited data

How the results depend on the processing

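Over all genes 63 passed with all libraries, 52 to 60 under a pseudocount of 0.1, quantile normalization and rescaling, 39 with a pseudocount of 5, 8 when a mean of at least 10 TPM was required, 0 with no filter (limma, with 2547 at an unadjusted p under 0.05), 2 to 61 when 1 library was left out and 13 without yolk sac replicates 1 and 2, where the 1 yolk sac library kept is assumed to vary like the others. Of the 8 receptors 1 passed, Adgrf5. It was 0 with no filter (adjusted p = 0.19), when a mean of at least 10 TPM was required, which left Adgrf5 untested, and without yolk sac replicates 1 and 2 (adjusted p = 0.0507), and 0 to 1 when 1 library was left out. Its difference was 1.74 to 3.44 over its 13 alternatives. Partner genes passing numbered 0 to 1 when 1 library was left out, and other tested family genes and transducers 0 in all alternatives. With the replicate number as a replicate block 0 genes passed, 1611 had an unadjusted p under 0.05 and Adgrf5 had an adjusted p of 0.0619. Deviations of same-numbered libraries from their tissue means correlated at 0.0186, -0.0205 and -0.00318 over genes. For libraries with different numbers the correlations were -0.029 to 0.034. Such values cannot show whether equal numbers share an embryo or litter, on which the labels are silent.

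Signs turned for Adgrg3 (-0.07), Adgrl4 (-0.04), Adgra3 (-0.03) and Adgrg7 (0.46) without yolk sac replicate 2, for Adgra3 without caudal replicate 1 (-0.15), for Adgrl2 without caudal replicate 3 (-0.0026), and for Adgrg7 with a pseudocount of 0.1 (0.05) or without yolk sac replicates 1 and 2 (0.69). None of these had passed, and the cause was not tested. Leaving out 1 library at a time gave -0.07 to 0.47 for Adgrg3, -0.0026 to 0.61 for Adgrl2, -0.04 to 0.59 for Adgrl4, -0.15 to 0.64 for Adgra3 and -0.54 to 0.46 for Adgrg7. Read depth is unknown, and each library came from 100 cells.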
